A study of Homo sapiens with 6 samples.

Results

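The 10 genes described here are the Notch receptors NOTCH1, NOTCH2 and NOTCH3, the ligands JAG1, JAG2, DLL1 and DLL3, and the transcription factor genes HES1, HES6 and HEY1. They were picked by gene symbol from a table of 26819 genes, and all 10 were found and tested. The pick used no cut on their values, but earlier results of these data were known when it was made. The samples are C4-2 cells, a castration-resistant prostate cancer line, that carry Tet-O-YAP5SA, a doxycycline-inducible YAP1 with its inhibitory phosphorylation sites replaced by alanine. The control group (Ctrl, 3 libraries) had no doxycycline and the treated group (Dox, 3 libraries) had it for 24 hours at 0.2 mg/ml as the labels write it, a unit that is in doubt because the value is high for such a line. Both groups carry the transgene, and the sources used here do not say whether the line is a clone or a pool. No cells without the transgene received doxycycline, so the drug and the transgene cannot be told apart. The labels do not tie the replicates to separate cultures, so the p-values rest on the spread among these 6 libraries, and that spread may be technical.

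Notch signalling passes between touching cells. A ligand of the Jagged or Delta-like family on one cell binds a Notch receptor on its neighbour, the receptor is cut by ADAM proteases and then by gamma-secretase, and the freed intracellular part joins RBPJ on DNA and switches on HES and HEY genes, which encode repressors. In the prostate the pathway takes part in the maintenance and differentiation of epithelial cells, and DLL3 is known as a surface antigen of neuroendocrine tumours.

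Promoter sequences are shown for the target with the highest level (HES1), the target that fell most on the log2(TPM + 1) scale (HES6) and the ligand that rose most (JAG1), each as the 250 bases before the RefSeq start, 5′ to 3′ on the gene's strand. Capitals mark matches to the RBPJ letters GTGGGAA or their reverse complement TTCCCAC, or to the TEAD letters GGAATG or CATTCC, TEAD being the DNA-binding partner of YAP1.
HES1 (GRCh38.p14 chr3:194135898-194136147, plus strand): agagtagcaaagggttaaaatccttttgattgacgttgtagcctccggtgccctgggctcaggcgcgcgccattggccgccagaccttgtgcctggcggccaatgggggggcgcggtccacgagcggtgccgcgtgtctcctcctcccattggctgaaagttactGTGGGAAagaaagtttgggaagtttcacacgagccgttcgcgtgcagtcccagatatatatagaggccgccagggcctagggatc
HES6 (GRCh38.p14 chr2:238240039-238240288, minus strand): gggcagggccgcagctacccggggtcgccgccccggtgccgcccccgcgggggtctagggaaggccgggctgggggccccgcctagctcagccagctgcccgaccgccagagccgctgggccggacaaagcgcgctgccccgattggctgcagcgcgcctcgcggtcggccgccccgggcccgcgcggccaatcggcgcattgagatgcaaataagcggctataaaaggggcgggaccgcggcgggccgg
JAG1 (GRCh38.p14 chr20:10674000-10674249, minus strand): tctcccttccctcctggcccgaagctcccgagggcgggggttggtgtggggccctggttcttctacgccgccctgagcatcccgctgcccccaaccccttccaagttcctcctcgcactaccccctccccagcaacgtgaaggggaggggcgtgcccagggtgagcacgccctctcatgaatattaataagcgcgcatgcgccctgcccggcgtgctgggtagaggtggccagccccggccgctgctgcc
Of the 10 members, DLL1, DLL3 and HEY1 had no promoter entry that was used here, so they were not searched. RefSeq entries were used for the other 7 (NOTCH1, NOTCH2, NOTCH3, JAG1, JAG2, HES1 and HES6). Among these 7 windows, the RBPJ letters were found only in HES1, 1 time, at positions -85 to -79 counted from the start, and 5.43% of all 35116 promoter windows of this length held them. The TEAD letters were in none of the 7 windows and in 11.9% of all windows. The N-box letters CACNAG or CTNGTG, which HES proteins bind, occurred 3 times in HES1 and 1 time in NOTCH3, and 32.0% of all windows held at least 1 match. No RBPJ or TEAD match shares bases with another match in these windows. A match is a description of letters, not of a site in use.

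Levels are in TPM (reads per unit of gene length, brought to a common total in each library), so levels of different genes can be compared. Whole reads recovered from the values came to between 24914226 and 29207519 per library over the 14833 tested genes (at least 1 TPM in at least 3 libraries). YAP1 rose from 56.8 ± 3.72 to 269 ± 6.92 TPM (SD, n = 3), values that do not separate the transgene from the cells' own gene. CTGF and CYR61, secreted proteins used as YAP readouts, rose to 398 ± 13.1 and 2648 ± 46.2 TPM. Of 12 luminal prostate markers all were tested, with summed levels of 6634 to 6737 TPM in Ctrl and 5590 to 5696 TPM in Dox, and 5 rose and 6 fell. The 5 listed basal markers summed to 2.14 to 2.55 TPM in Ctrl and 2.56 to 2.92 TPM in Dox. Of these, KRT14 (1.48 ± 0.175 and 1.44 ± 0.290 TPM) and KRT15 (0.854 ± 0.195 and 1.19 ± 0.161 TPM) were tested and neither passed (limma adjusted p = 0.88 and 0.17), while KRT5, TP63 and NGFR were at or below 0.0952 TPM on average in both groups. The 4 listed endothelial markers summed to 1.17 to 1.41 TPM in Ctrl and 3.97 to 4.68 TPM in Dox, and the listed stromal and immune markers reached at most 0.454 TPM in sum in any library for either type. Of the endothelial markers, VWF rose from 1.25 ± 0.116 to 3.74 ± 0.226 TPM (log2 fold change 1.07, limma adjusted p = 6.6e-05). CDH5 was below the limit for testing, at 0 to 0.0197 TPM in Ctrl and 0.381 to 0.567 TPM in Dox, and KDR and TIE1 were at 0 TPM in all Ctrl libraries and at most 0.0772 TPM in Dox. The part of any other cell type in the results was not tested. In bulk libraries such as these, fewer cells expressing a gene and less RNA per cell cannot be told apart.

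With doxycycline 5 of the 10 members rose, 4 fell and HES1 did not pass the test (limma on log2(TPM + 1), Benjamini-Hochberg adjusted over all tested genes, threshold 0.05). Of all tested genes 53.7% were called, 35.9% higher and 17.8% lower, and the members' counts are to be read against that background. The ranges of the 2 groups were separate for 9 of the 10 members (all but JAG2) and for 61.9% of all tested genes. The median log2 fold change was 0.14 over the members and 0.10 over all tested genes. Scaling matters for small changes: 66.8% of the called genes were higher on the deposited scale, 49.4% when libraries were rescaled by median ratios and 44.9% when quantiles were matched. These scalings moved the median of all genes by -0.10 and -0.13. The members did not move in 1 direction, and receptors, ligands and targets each held a gene that fell.

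**Figure D1:**
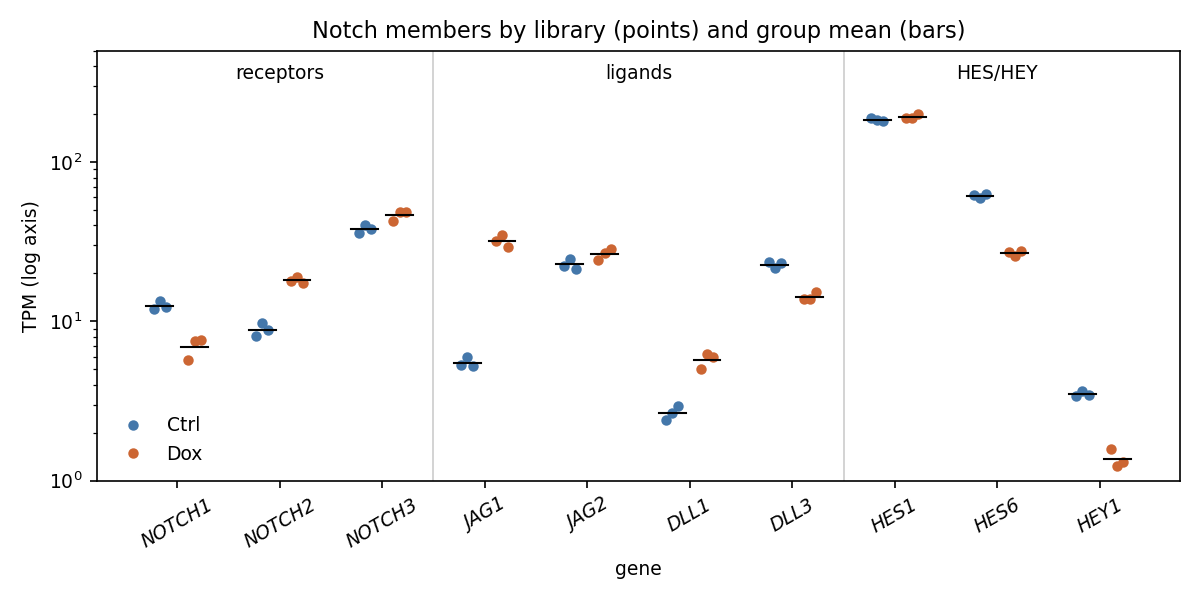
TPM (log axis) of the 10 members in each library (points, 3 Ctrl and 3 Dox) with group means (bars). JAG1 shows the widest gap, from 5.22 to 6.02 TPM in Ctrl up to 29.2 to 34.7 TPM in Dox, while HES1 sits between 182 and 200.2 TPM in all 6 libraries.

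Among the receptors, NOTCH1 and NOTCH2 changed places in the order of levels and NOTCH3 remained the most abundant. NOTCH1 (ENSG00000148400.9), the best studied of the receptors, stood at 11.9, 13.4 and 12.3 TPM in Ctrl 1 to 3 and at 5.71, 7.48 and 7.63 TPM in Dox 1 to 3. Every Dox library was below every Ctrl library, with Dox 1 the lowest. Its mean was 1.81-fold lower (12.5 ± 0.795 against 6.94 ± 1.07 TPM) and its log2 fold change -0.78 ± 0.11 (SE, limma adjusted p = 0.00058). NOTCH1 rested on 1030 to 1118 recovered reads in Ctrl and 422 to 663 in Dox. NOTCH2 (ENSG00000134250.13), a close paralog, moved the other way, with 8.11, 9.70 and 8.85 TPM in Ctrl and 17.9, 19.0 and 17.5 TPM in Dox. The groups were far apart, and the mean rose 2.04-fold (log2 fold change 0.95 ± 0.07, limma adjusted p = 2.8e-05). A shortened human-specific copy of its gene, NOTCH2NL, is listed separately and shares near-identical sequence, so reads may be split between them. NOTCH2NL had 10.7, 11.7 and 11.4 TPM in Ctrl and 22.9, 22.4 and 21.8 TPM in Dox. It rose 1.99-fold (log2 fold change 0.93 ± 0.05), close to the ratio of NOTCH2 itself, and how far each value holds reads of the other was not tested.

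NOTCH3 (ENSG00000074181.4) had 35.7, 40.5 and 38.2 TPM in Ctrl and 42.8, 48.3 and 48.6 TPM in Dox. The lowest Dox library lay just above the highest Ctrl library. The rise was 1.22-fold (log2 fold change 0.28 ± 0.07, limma adjusted p = 0.0082), and after quantile normalization it no longer passed (0.16, adjusted p = 0.054). NOTCH4, the remaining receptor, averaged 0.0160 TPM in Ctrl and 0.0257 TPM in Dox and was not tested. In Ctrl the order was NOTCH3, NOTCH1, NOTCH2, and in Dox it was NOTCH3, NOTCH2, NOTCH1, with no overlap between neighbours in either group.

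The summed level of the 3 receptors went from 59.5 ± 3.97 to 71.6 ± 4.54 TPM. NOTCH1 made up 21.1 ± 0.369% of this sum in Ctrl and 9.65 ± 0.934% in Dox, while NOTCH2 went from 14.9 ± 0.344% to 25.4 ± 1.61%. NOTCH3 held 64.0 ± 0.401% and 65.0 ± 0.820%. The ratio of NOTCH2 to NOTCH1 was 0.681, 0.723 and 0.722 in Ctrl and 3.14, 2.55 and 2.29 in Dox. For each of 17 such sums, shares and ratios of receptors, ligands and targets, the groups did not overlap and the exact two-sided permutation test gave p = 0.1, also after Benjamini-Hochberg adjustment, which is the smallest value that 3 against 3 libraries allow.

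The ligands held the largest change of all members. JAG1 (ENSG00000101384.7), a Jagged ligand, was at 5.30, 6.02 and 5.22 TPM in Ctrl and at 32.2, 34.7 and 29.2 TPM in Dox. All Dox libraries stood far above all Ctrl libraries. The mean rose 5.81-fold, from 5.51 ± 0.440 to 32.0 ± 2.73 TPM, with a log2 fold change of 2.34 ± 0.08 (limma adjusted p = 4.1e-07), the 87th largest in size among 14833 tested genes. Between 279 and 319 reads in Ctrl and 1516 and 1806 reads in Dox lie behind these values. A second entry with the symbol JAG1 (ENSG00000270408.1), an identifier that is not in GENCODE 29, had 3.53, 4.18 and 5.38 TPM in Ctrl and 28.7, 35.5 and 27.2 TPM in Dox. That entry rested on only 18 to 26 reads in Ctrl and 122 to 167 in Dox, and its ratio was 6.98. It is not counted among the members. In GENCODE 29, JAG1 shares 79 exon bases (0.850% of its own) with AL050403.2 on the opposite strand, and apart from JAG1 and JAG2 no member shares exon bases with another gene. The reads of JAG1 were recovered with a length of 6292 bases, against 9298 exon bases in GENCODE 29. Whether the overlap applies to the deposited values was not tested.

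JAG2 (ENSG00000184916.4), the other Jagged ligand, changed least among the members that were called. It had 22.1, 24.7 and 21.5 TPM in Ctrl and 24.4, 26.7 and 28.3 TPM in Dox, so that Dox 1 lay below Ctrl 2. The mean was 1.16-fold higher and the log2 fold change 0.21 ± 0.07 (limma adjusted p = 0.041). Median-ratio rescaling (0.10, adjusted p = 0.26) and quantile normalization (0.08, adjusted p = 0.37) ended the call. So did leaving out Ctrl 1 (adjusted p = 0.11), Ctrl 3 (0.13), Dox 2 (0.10) or Dox 3 (0.12). In GENCODE 29, 7.33% of the JAG2 exon bases are shared with RP11-44N21.4, a non-coding gene on the same strand that was at 39.4 ± 5.05 TPM in Ctrl and 45.8 ± 2.46 TPM in Dox. The ratio of JAG1 to JAG2 was 0.239, 0.244 and 0.243 in Ctrl and 1.32, 1.30 and 1.03 in Dox, so JAG1 passed JAG2 in every Dox library.

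The Delta-like ligands changed in opposite directions. DLL1 (ENSG00000198719.7), an activating ligand, was the lowest of the ligands among the members, with 2.39, 2.65 and 2.93 TPM in Ctrl and 5.05, 6.28 and 5.95 TPM in Dox. The groups were separate, and the mean rose 2.17-fold (log2 fold change 0.88 ± 0.10, limma adjusted p = 0.00025) on 68 to 79 reads in Ctrl and 120 to 166 reads in Dox. DLL3 (ENSG00000090932.6), a divergent ligand that works inside the cell that makes it rather than activating a neighbour, had 23.6, 21.5 and 23.1 TPM in Ctrl and 13.9, 13.7 and 15.4 TPM in Dox. All Dox libraries lay below all Ctrl libraries, with a mean 1.59-fold lower and a log2 fold change of -0.63 ± 0.06 (limma adjusted p = 0.0001). DLL4, a ligand best known from blood vessels, was below the limit for testing, at 0.598 ± 0.0706 TPM in Ctrl and 0.177 ± 0.112 TPM in Dox, with all Dox libraries below all Ctrl libraries. With no filter on low values it was called lower (log2 fold change -0.45 ± 0.09, limma adjusted p = 0.012).

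Because DLL3 marks neuroendocrine tumours, the neuroendocrine markers are given beside it. Of 10 such markers 9 are listed and only ENO2 reached the testing limit, and it fell from 109 ± 9.19 to 88.2 ± 5.41 TPM. The listed markers summed to between 100.02 and 118 TPM in Ctrl and between 86.1 and 96.0 TPM in Dox, nearly all of it ENO2. The defining markers were near 0: CHGA, a secretory granule protein, averaged 0.0120 and 0.0273 TPM, INSM1 0.0417 and 0.111 TPM, and SYP 0.901 and 0.898 TPM in Ctrl and Dox. CHGB was at 0, 0 and 0.0259 TPM in Ctrl 1 to 3 and at 0 TPM in all Dox libraries.

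The summed level of the 4 ligands rose from 53.7 ± 1.09 to 78.6 ± 2.96 TPM. JAG1 supplied 10.3 ± 0.611% of the sum in Ctrl and 40.8 ± 3.20% in Dox. The share of DLL3 went from 42.4 ± 2.75% to 18.3 ± 1.31%, that of JAG2 from 42.4 ± 2.27% to 33.7 ± 1.95%, and that of DLL1 from 4.95 ± 0.546% to 7.31 ± 0.548%. In Ctrl, JAG2 and DLL3 were the highest ligands and overlapped each other, JAG1 followed and DLL1 was lowest. In Dox the order was JAG1, JAG2, DLL3, DLL1, with no overlap between neighbours.

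**Figure D2:**
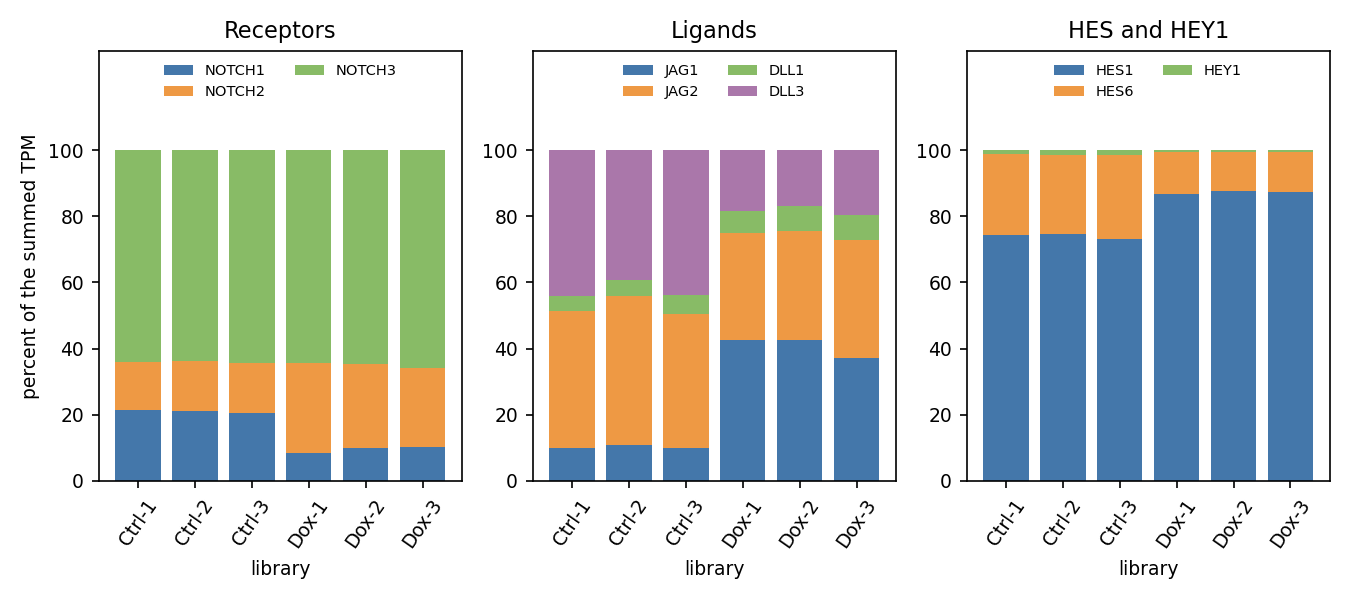
Percent of the summed TPM that each gene supplied in each of the 6 libraries, for receptors, ligands and the HES and HEY1 genes (stacked bars, 1 per library). NOTCH2 takes the place of NOTCH1 while NOTCH3 holds near 64.0 to 65.0%, JAG1 grows from 10.3% to 40.8% of the ligands, and HES6 shrinks from 24.6% to 12.2% of the third group.

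None of the HES and HEY members rose. HES1 (ENSG00000114315.3), the archetypal Notch target and the gene whose promoter letters are shown above with the RBPJ match, had 189.1, 183 and 182 TPM in Ctrl and 189.3, 189.3 and 200.2 TPM in Dox. The highest Ctrl library reached almost exactly the lowest Dox library. Its log2 fold change was 0.06 ± 0.03 and did not pass (limma adjusted p = 0.17). After median-ratio rescaling the sign turned (-0.05, adjusted p = 0.37). HES1 was the most abundant member in both groups, on 2922 to 3631 reads per library.

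HES6 (ENSG00000144485.6), a relative that opposes HES1 and is not a typical Notch-induced gene, was at 61.8, 59.1 and 63.4 TPM in Ctrl and at 27.3, 25.7 and 27.7 TPM in Dox. The groups were far apart and each was tight. Its mean fell 2.28-fold, from 61.5 ± 2.16 to 26.9 ± 1.08 TPM (log2 fold change -1.16 ± 0.05, limma adjusted p = 9.6e-07), the largest fall among the members on that log2(TPM + 1) scale, though not by the ratio of means, with voom or with pseudocount 0.1, where HEY1 fell more. HEY1 (ENSG00000164683.12), a repressor induced by Notch in many tissues, was low, with 3.38, 3.64 and 3.46 TPM in Ctrl and 1.57, 1.23 and 1.30 TPM in Dox. It rested on 95 to 99 reads in Ctrl and 33 to 38 in Dox, and all Dox libraries were below all Ctrl libraries. The mean was 2.55-fold lower. On the log2(TPM + 1) scale, which understates changes of low genes, the log2 fold change was -0.93 ± 0.10 (limma adjusted p = 0.00017), and limma voom on the recovered reads gave -1.40 (adjusted p = 3.8e-07) against -1.23 for HES6. With pseudocount 0.1 the values were -1.30 for HEY1 and -1.19 for HES6.

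The ratio of HES1 to HES6 was 3.06, 3.10 and 2.87 in Ctrl and 6.92, 7.38 and 7.23 in Dox. In the summed level of the 3 genes, which went from 249.8 ± 4.14 to 221 ± 6.97 TPM, the share of HES1 grew from 74.0 ± 0.766% to 87.2 ± 0.421%. HES6 held 24.6 ± 0.783% and 12.2 ± 0.338%, and HEY1 1.40 ± 0.0737% and 0.619 ± 0.0870%.

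**Figure D3:**
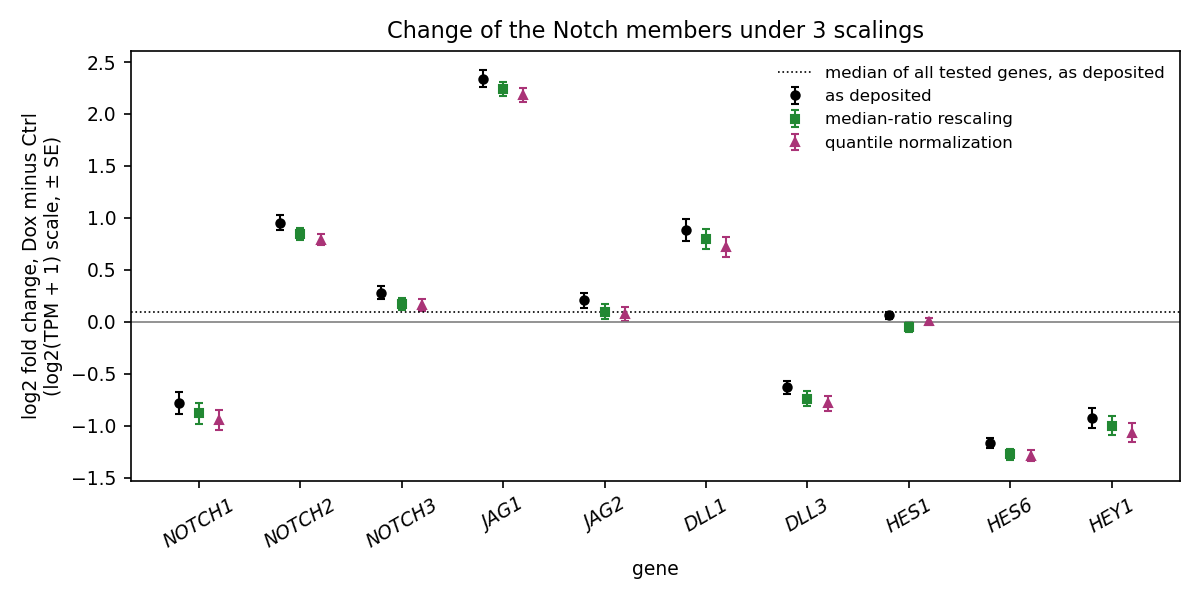
Log2 fold change (Dox minus Ctrl, log2(TPM + 1) scale, ± SE, 3 libraries a group) of the 10 members as deposited (circles), with median-ratio rescaling (squares) and with quantile normalization (triangles). The dotted line is the median of all tested genes as deposited and applies to the circles only. The 3 scalings differ by less than the distance to 0 for NOTCH1, NOTCH2, NOTCH3, JAG1, DLL1, DLL3, HES6 and HEY1, but not for JAG2 and HES1. As deposited, JAG2 stood at 0.21 and HES1 at 0.06, against a median of 0.10.

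Around the members, a list of 76 other pathway genes was followed. Of these 71 are listed in the table and 60 were tested. Of the tested genes 28 rose, 8 fell and 24 did not pass, a median log2 fold change of 0.17 against 0.10 for all tested genes. After median-ratio rescaling 19 rose and 14 fell, and after quantile normalization again 19 and 14. The share called was 60.0%, against 53.7% of all tested genes.

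Among genes for receptor cleavage 5 of 9 rose and none fell (median 0.19). ADAM10, the protease that makes the first ligand-dependent cut, rose 1.90-fold from 62.9 ± 3.66 to 119.5 ± 2.31 TPM (log2 fold change 0.92 ± 0.05, limma adjusted p = 3.4e-06). Of the gamma-secretase subunits, APH1B rose 1.52-fold to 17.8 ± 0.750 TPM, APH1A 1.22-fold to 175 ± 0.925 TPM and PSENEN 1.21-fold to 235 ± 4.99 TPM. NCSTN also rose, by 1.14-fold, and lost its call after median-ratio rescaling (adjusted p = 0.10). PSEN2, a further gamma-secretase subunit, was at 18.4 ± 1.56 and 19.8 ± 0.433 TPM, and it, ADAM17 and FURIN did not pass the test.

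Genes that add sugars to the receptors gave 2 rises and 1 fall among 8 tested (median 0.07). LFNG, a Fringe enzyme that typically shifts NOTCH1 towards Delta-like and away from Jagged ligands, fell 1.81-fold from 5.98 ± 0.179 to 3.30 ± 0.348 TPM (log2 fold change -0.70 ± 0.09, limma adjusted p = 0.00034). Its paralog RFNG went from 17.9 ± 1.04 to 20.9 ± 0.657 TPM and GXYLT2, a xylosyltransferase, from 4.36 ± 0.271 to 5.43 ± 0.291 TPM. Both of these rises lose their call with median-ratio rescaling (limma adjusted p = 0.15 and 0.10), with quantile normalization (0.47 and 0.34), without Ctrl 1 (0.0504 and 0.053) and without Dox 2 (0.057 and 0.083). That of GXYLT2 is also lost without Ctrl 2 (limma adjusted p = 0.060) and with no filter on low values (0.057). POFUT1, the enzyme that adds O-fucose, was at 45.3 ± 2.89 and 47.2 ± 0.511 TPM, and MFNG was at 0.0381 and 0.0257 TPM.

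Of 15 tested genes for ligand endocytosis and receptor turnover 7 rose and 1 fell (median 0.22). DNM2, the dynamin of endocytic vesicles, rose 1.33-fold from 45.7 ± 1.69 TPM, the kinase AAK1 1.45-fold to 3.34 ± 0.158 TPM, and the ubiquitin ligase ITCH 1.32-fold to 51.5 ± 1.01 TPM. NUMB, an adaptor that limits Notch signalling, rose from 18.0 ± 0.581 to 22.9 ± 0.427 TPM (1.27-fold). NEURL1B, a ubiquitin ligase of ligands, fell from 16.4 ± 0.808 to 13.4 ± 0.131 TPM.

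In the nuclear complex, 8 of 17 tested genes rose and 3 fell (median 0.07). RBPJ, the DNA-binding core of the complex, fell 1.22-fold, with 36.7 ± 1.66 TPM in Ctrl and 30.2 ± 1.79 TPM in Dox (log2 fold change -0.27 ± 0.06, limma adjusted p = 0.0045). The acetyltransferase paralogs moved apart, KAT2B rising 2.01-fold from 8.63 ± 0.460 to 17.3 ± 0.202 TPM and KAT2A falling 1.34-fold from 45.2 ± 1.20 to 33.7 ± 0.477 TPM. The corepressor NCOR1 rose 1.35-fold from 11.4 ± 1.37 to 15.4 ± 0.308 TPM. SPEN, a corepressor that binds RBPJ, rose 1.78-fold to 17.6 ± 0.878 TPM and CTBP2, a further corepressor, rose from 44.0 ± 2.01 to 65.7 ± 0.759 TPM. The coactivators MAML1 and MAML3 did not pass, with log2 fold changes of 0.06 ± 0.09 and -0.02 ± 0.10. MAML2 was below the limit for testing, at 0.152 ± 0.0448 TPM in Ctrl and 0.492 ± 0.134 TPM in Dox. With no filter on low values MAML2 was called higher (log2 fold change 0.37 ± 0.08, limma adjusted p = 0.019).

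The last list mixed further HES and HEY genes, published Notch targets and TLE corepressors. Of 10 tested genes 5 rose and 3 fell (median 0.23). HES2, a little studied HES relative, had 4.17 ± 0.606 TPM in Ctrl and 20.3 ± 0.787 TPM in Dox, a 4.86-fold rise (log2 fold change 2.05 ± 0.09, limma adjusted p = 1.5e-06). MYC and CCND1, drivers of growth with many inputs besides Notch, rose 2.20-fold and 1.52-fold, and TLE2 rose 1.27-fold. TLE2 lost its call after quantile normalization (limma adjusted p = 0.15). CDKN1A, an inhibitor of the cell cycle, fell 1.82-fold. NRARP, a feedback inhibitor that Notch induces, fell from 19.9 ± 2.30 to 14.3 ± 0.0628 TPM (log2 fold change -0.45 ± 0.08, limma adjusted p = 0.0024), and the repressor BCL6 from 59.2 ± 0.239 to 46.0 ± 3.37 TPM. HES4 was at 45.1 ± 4.16 and 53.2 ± 7.45 TPM and did not pass.

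**Figure D4:**
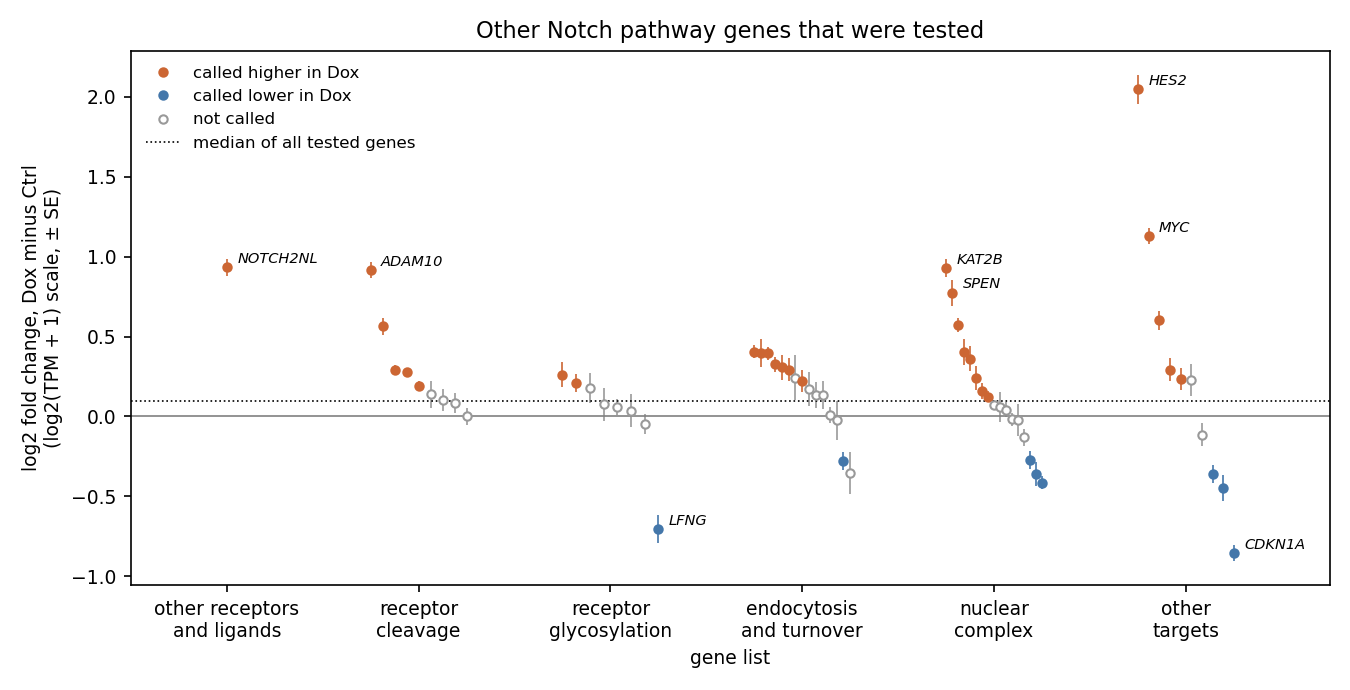
Log2 fold change (Dox minus Ctrl, log2(TPM + 1) scale, ± SE) of the 60 tested pathway genes outside the members, by list, with called genes filled. The dotted line is the median of all tested genes. HES2, at 2.05, is the highest point and CDKN1A, at -0.85, the lowest.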

How the data were processed

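Stranded mRNA libraries (TruSeq kit, per the labels' protocols) of 3 Ctrl and 3 Dox samples were analysed, grouped and numbered by their titles. The submitters' processing notes name FastQC 0.11.2, STAR 2.5.3a, featureCounts, edgeR and the build hg19. The authors deposited 1 TPM value per gene and library. Annotation release and strand setting: not given in the sources used here. As each library sums to 1000000, values are relative, and strong induction of some genes lowers the rest.

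Members were taken by symbol, first entry where a symbol repeats. The filter was 1 TPM in 3 or more libraries, and the test was limma 3.58.1 (lmFit, eBayes with trend, R 4.3.3) on log2(TPM + 1), which understates changes of low genes. Fold values are ratios of mean TPM. Whole reads were recovered as TPM times length over a library constant: with a tolerance of 0.01 reads, 9115 of 14833 genes were whole with their GENCODE 29 exon length and 5718 with the smallest length that gave whole reads, which covers at least 99.7% of each library's TPM. If all 6 counts of a gene share a divisor, these reads are too low by that factor. For 1 kb, 3 reads correspond to 0.335 to 0.401 TPM, counting error only. Pairs of libraries within a group differed by more than counting error (mean chi-square per gene 2.55 to 4.99). The script was tested on simulated data.

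The members and lists were chosen with earlier results of these data known. All members are named, and from each other pathway list up to 4 genes called higher and 4 called lower by size; other names were chosen after their values were seen, and some genes that meet the rule are not reported here. GENCODE 29 and RefSeq (GRCh38) gave lengths, overlaps and promoter letters only. Alternatives were pseudocount 0.1, no filter, a mean of at least 5 TPM, median-ratio and quantile scaling, leaving out mitochondrially encoded genes, eBayes with no trend, a replicate block, voom and leaving out each library. Figures were drawn with matplotlib 3.10.9.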

Additional observations from a re-analysis of the deposited data

How the results depend on the processing

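Of the 10 members, NOTCH1, NOTCH2, JAG1, DLL1, DLL3, HES6 and HEY1 kept direction and call under each alternative that could be run, 15 for each gene except DLL1 and HEY1, with 14, since neither has a mean of 5 TPM. NOTCH3 fell short after quantile normalization (log2 fold change 0.16, limma adjusted p = 0.054). JAG2 fell short after median-ratio rescaling (0.10) and quantile normalization (0.075), and, at an unaltered 0.21, with no filter (adjusted p = 0.087) and with no variance trend (0.063). Leaving out 1 library gave JAG2 values of 0.16 to 0.27. HES1, not called under any alternative, turned to -0.053 after median-ratio rescaling. Quantile normalization left 3 members called higher. Other pathway genes called lower numbered 14 with either rescaling (8 as deposited). Called genes among other receptors and ligands numbered 2 without the filter, and among glycosylation genes 1 with a mean of at least 5 TPM and 1 to 3 when 1 library was left out. The causes were not tested, apart from fewer or more genes entering the test. With the replicate block the member calls were again 5 higher and 4 lower, JAG2 had adjusted p = 0.047, and among the other genes named above only GXYLT2 lost its call (0.051). Deviations of same-numbered libraries correlated at -0.00854, 0.0633 and 0.00346, and those of differently numbered libraries at -0.0403 to 0.0384. The labels name no pairing, and these libraries are too few to tell whether there was one. Depth limits HEY1 and DLL1 most, at 33 to 99 and 68 to 166 reads per library.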
